A study of Mus musculus with 17 samples.

Results

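The nuclear genes of oxidative phosphorylation are measured here in the cell-free RNA of mouse plasma, the RNA that remains in blood after the cells are spun out. The members were taken by name from the 49585 genes of the count tables. For complex I these were Nduf genes with a subunit letter and a number, and for complex II Sdha to Sdhd. Uqcr genes were taken for complex III, Cox4 to Cox8 genes for complex IV and Atp5 genes for complex V. The 6 names marked -ps, which had 0 reads, were left out. The name alone set the complex, so a member need not be a subunit of it. The rule found 84 genes, which held 1227 of the 2749638 counted reads, or 0.0446%, and it used no measured value. They are set beside the 13 mRNAs of the same complexes that mitochondrial DNA codes for, which held 11389 reads. All plasma came from wild-type C57BL/6J mice with a labelled age of 13 weeks, with each library from a single mouse: 6 libraries from mice kept in microgravity on the International Space Station (MG), 6 from mice kept there on a rotating platform that gives artificial 1-G gravity (AG) and 5 from mice on the ground (GC). AG and MG thus share the flight and differ in gravity, while GC differs from both in the flight itself.

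The respiratory chain sits in the inner mitochondrial membrane. Complex I (NADH dehydrogenase) and complex II (succinate dehydrogenase) pass electrons to ubiquinone, complex III passes them on to cytochrome c, and complex IV (cytochrome c oxidase) passes them to oxygen. The protons pumped on the way drive complex V, the ATP synthase. Except for complex II, which is coded wholly in the nucleus, each complex joins a few subunits made inside the mitochondrion from its own DNA with many that are transcribed in the nucleus, translated in the cytosol and imported. A nuclear-coded mRNA of the chain is therefore a cytosolic RNA, and its partner from mitochondrial DNA lies inside the organelle.

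The libraries were shallow, from 84657 to 277682 reads, and 4 genes (Tmem38b, Polr2m, Lars2 and Rn18s-rs5) held 86.9 to 91.7% of the reads in AG, 70.6 to 83.5% in MG and 76.9 to 83.1% in GC. The AG range did not overlap the others, so a level given relative to all reads is low in AG for most genes. Levels are therefore given as CPM, the reads of a gene scaled to a fixed library depth, after correction by edgeR's trimmed mean of M-values (TMM-normalized CPM), with other scalings beside them. Markers of several sources were present: all 10 red cell markers (2929 to 25368 TMM-normalized CPM in sum over the 17 libraries), all 8 platelet markers (266 to 3372) and all 10 liver markers (13.5 to 3723), while 6 of 8 leukocyte markers were detected (77.8 to 235), with Camp and Cd3e at 0. In bulk plasma, more releasing cells and more RNA per cell cannot be told apart.

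Nearly all of the nuclear-coded chain was detectable, but each gene by few reads. Of the 84 members, 76 (90.5%) had a read in some library, beside 25.4% of all genes in the tables. At least 5 reads over the 17 libraries were found for 52 (61.9%), beside 12.6% of all genes. The tables also hold small RNA genes and names marked -ps, and the share among protein-coding genes alone was not computed. The median was 9.50 reads per member. The 8 members with no read were Cox4i2, Cox7a1, Cox7b2, Cox8b and Cox8c of complex IV, Ndufa4l2 and Ndufa6 of complex I and Atp5sl. A count of 0 allows each of them a share of up to 0.000109% of all reads (3 reads, counting error only). No member was found in every library, and the most widely found, Cox7a2l, was seen in 16 of 17. Of the 1428 values of 84 genes in 17 libraries, 488 (34.2%) were above 0, 209 of these were a single read and 9 were 10 reads or more. The 8 members with over 40 reads (Cox5a, Atp5b, Ndufa4, Atp5a1, Cox7a2l, Cox6b1, Cox6c and Uqcrh) held 511 reads, or 41.6% of all member reads.

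**Figure D1:**
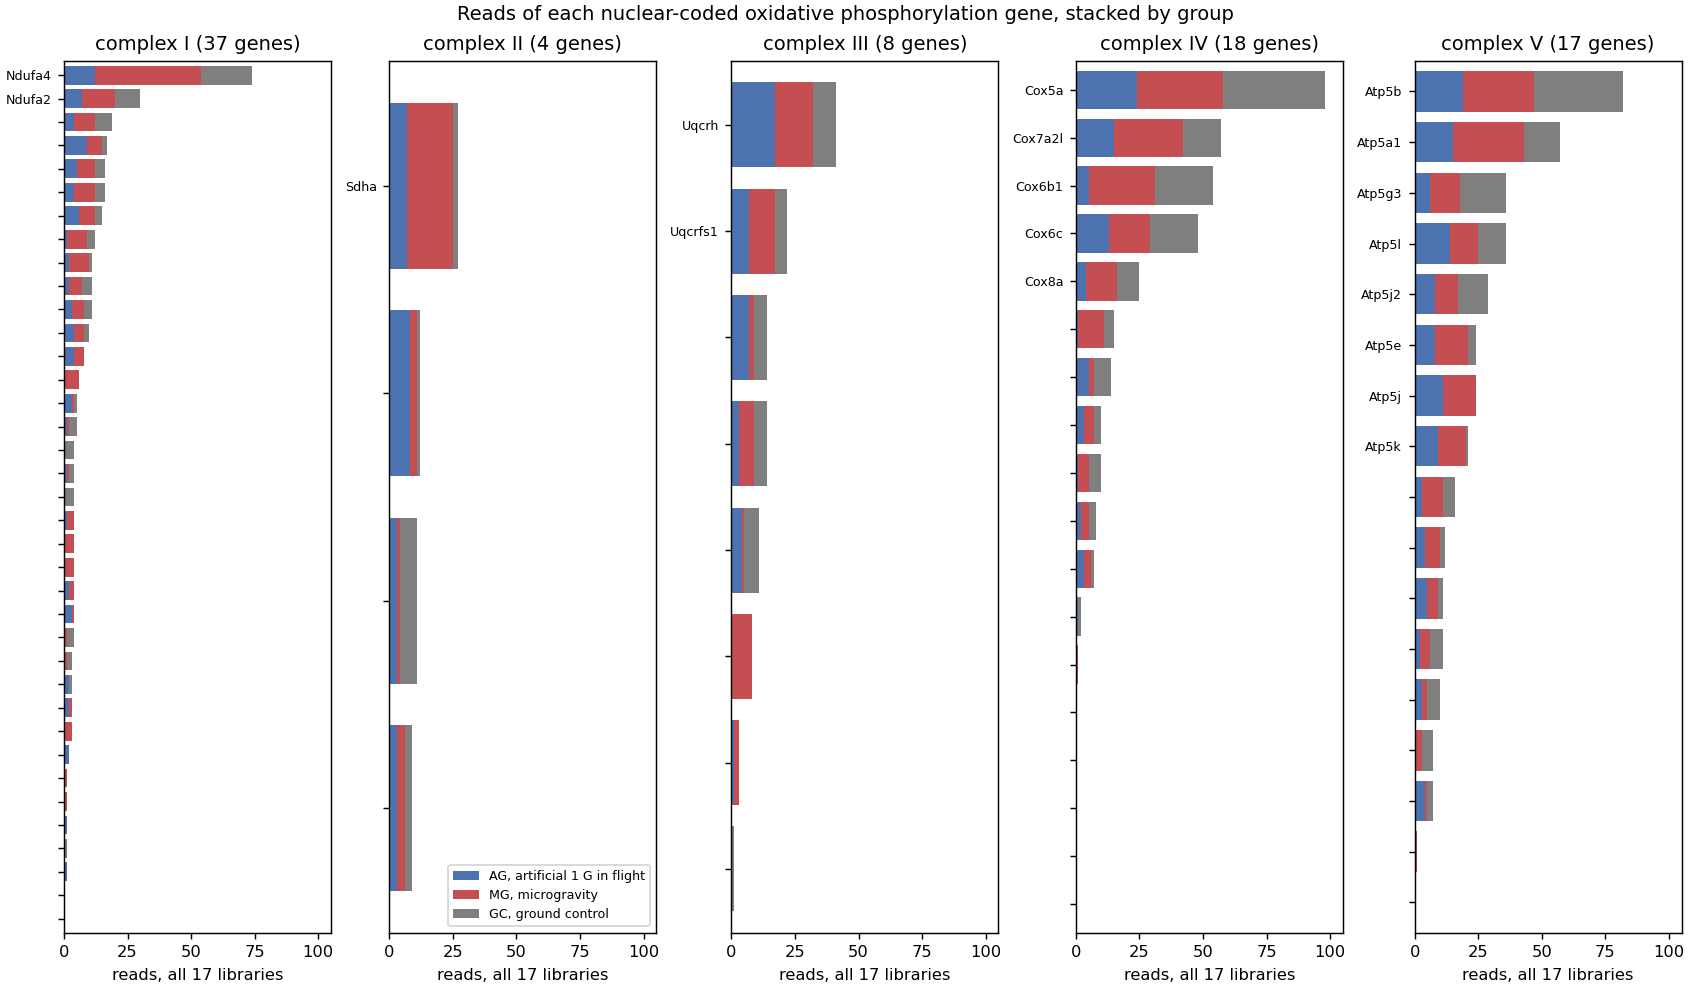
Reads of each of the 84 genes over the 17 libraries, one panel per respiratory complex, with bars stacked by group (AG, MG and GC) and names beside the genes with at least 20 reads. Cox5a has the longest bar with 98 reads, and most genes of complex I have fewer than 20.

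Complex I, the entry point of electrons from NADH, had 35 of its 37 members detected with 321 reads (26.2% of the member reads). The complex is built around core subunits that carry the flavin and iron-sulfur clusters, surrounded by accessory subunits that are needed for its assembly and stability. The 3 leading members were not core genes. Ndufa4 had 74 reads, Ndufa2 had 30 and Ndufa3 had 19. Among the core genes, Ndufs1 had 12 reads, Ndufs7 had 11, Ndufs3 had 10 and Ndufv2 had 5, with 1 each for Ndufs8 and Ndufv1. Ndufa4 was named as a complex I subunit and is now placed in cytochrome c oxidase. In AG its reads in the 6 libraries were 4, 6, 2, 0, 0 and 0, in MG they were 24, 2, 6, 1, 7 and 2, and in GC they were 3, 9, 2, 3 and 3. The level was 12.3 ± 15.4 TMM-normalized CPM over the 6 AG libraries (mean ± SD), 38.8 ± 44.3 over the 6 MG libraries and 22.1 ± 9.70 over the 5 GC libraries. It was detected in all MG and GC libraries and in 3 of 6 AG libraries, and the ranges of the groups overlapped.

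Complex II, which also acts in the citric acid cycle and holds no subunit from mitochondrial DNA, had all 4 members detected but only 59 reads (4.81%). Sdha, its flavoprotein subunit, had 27 reads, the iron-sulfur subunit Sdhb had 12, and the membrane anchors Sdhc and Sdhd had 11 and 9. The AG libraries had 2, 1, 0, 0, 0 and 4 reads of Sdha, the MG libraries had 7, 1, 0, 3, 4 and 3, and the GC libraries had 0, 1, 0, 0 and 1. Sdha was seen in 5 of 6 MG libraries and 2 of 5 GC libraries, and the single reads of GC lie within the MG range. In AG, MG and GC, Sdhb had 8, 3 and 1 reads, Sdhc had 3, 1 and 7 and Sdhd had 3, 3 and 3. Sdhb thus had more reads in MG than in GC, as Sdha did, and Sdhc had fewer.

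Complex III, the cytochrome bc1 complex, had all 8 members detected with 114 reads (9.29%). Uqcrh, the hinge protein, had 41 reads and was found in 13 libraries, and Uqcrfs1, the Rieske iron-sulfur protein, had 22. Uqcrc1, a core subunit, and Uqcr11, a small subunit, had 14 reads each. The reads of Uqcrh were 4, 5, 4, 0, 2 and 2 in AG, 2, 3, 0, 2, 8 and 0 in MG and 1, 2, 3, 3 and 0 in GC. Every group had a library without Uqcrh and the ranges overlapped throughout. Of the 14 reads of Uqcrc1, 5 lay in a single GC library and no other GC library had any.

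Complex IV had 13 of its 18 members detected with 349 reads (28.4%). Cox5a, a subunit on the matrix side of the enzyme, had 98 reads, the largest number of any member. It had 5, 7, 0, 6, 0 and 6 reads in AG, 7, 8, 1, 9, 4 and 5 in MG and 5, 15, 4, 4 and 12 in GC. Its level was 34.7 ± 31.0 TMM-normalized CPM over the 6 AG libraries (mean ± SD), 35.3 ± 22.7 over the 6 MG libraries and 41.4 over the 5 GC libraries, which ran from 24.8 to 55.6, so the means lay closer together than the libraries of any group. Cox7a2l had 57 reads. Cox6b1, on the face of the enzyme that meets cytochrome c, had 54 reads in 13 libraries.

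Several subunits of complex IV come as isoforms, with a broadly expressed gene and a second gene restricted to muscle, lung, testis or other tissues. The 6 broad genes had 123 reads: 54 for Cox6b1, 25 for Cox8a, 15 for Cox4i1, 14 for Cox7a2, 8 for Cox6a1 and 7 for Cox7b. The 7 restricted genes together had 3 reads, 2 of Cox6a2, the isoform of heart and skeletal muscle (1 in AG and 1 in GC), and 1 of Cox6b2, the isoform of testis (in MG). Cox7a1 and Cox8b, the other muscle isoforms, and Cox4i2, the isoform of lung, had none. Muscle RNA itself was at low counts, with 120 reads of 8 skeletal muscle markers (Mylpf at 0) and 210 reads of 6 heart muscle markers.

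Complex V had 16 of its 17 members detected with 384 reads (31.3% of the member reads). This was the largest share with the complexes taken by gene name, but with Ndufa4 counted in complex IV that complex had 423 reads (34.5%). Its catalytic head is made by Atp5b (the beta subunit, 82 reads) and Atp5a1 (the alpha subunit, 57 reads). Atp5g3, a gene for the c subunit of the rotating ring, and Atp5l, the g subunit of the membrane part, had 36 reads each. Atp5b had 2, 8, 0, 0, 2 and 7 reads in AG, 3, 7, 3, 11, 1 and 3 in MG and 2, 25, 0, 4 and 4 in GC. Its largest count lay in GC replicate 2, which also had the most member reads of all libraries (151), while another GC library had none. The group means were 29.4 ± 33.9 TMM-normalized CPM over the 6 AG libraries (mean ± SD), 31.6 ± 29.9 over the 6 MG libraries and 32.8 ± 36.4 over the 5 GC libraries.

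The 83 members with an entry in the GENCODE annotation of mm10 lie on 19 chromosomes. A window from 250 bases before to 50 bases after the start of the gene was given by RefSeq for 69 members (build GRCm38.p6, the same assembly as mm10), and 3 motifs of factors known to drive respiratory chain genes were searched on both strands. The NRF1 motif (GCGCA, then any base, then GCGC) lay in the window of 17 members (24.6%), beside 7.17% of 17492 protein-coding genes. The GABP motif CCGGAAG lay in 16 (23.2%, beside 12.9%), and the YY1 motif AAGATGGC in 11 (15.9%, beside 3.57%). At least 1 of the 3 was found in 38 of the 69 windows (55.1%), beside 21.0% of coding genes, and 31 windows held none. Each motif thus lay in a minority of the windows. The TATA box letters TATAAA lay in 7 windows, beside 14.8% of coding genes. A match is a description of the letters and not a bound site, and the motifs can overlap each other. The 3 windows below show such matches upstream of the start in members named above, as the gene's strand reads from 5′ to 3′, with the motif or its reverse complement in capitals. That of Atp5l (chr9:44920928-44920974, minus strand) and that of Uqcr11 (chr10:80406861-80406907, minus strand) hold the GABP motif, and that of Cox6a1 (chr5:115349046-115349095, minus strand) holds the NRF1 motif. No annotated exon lies inside them.
Atp5l: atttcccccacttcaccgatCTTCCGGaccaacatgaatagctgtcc
Uqcr11: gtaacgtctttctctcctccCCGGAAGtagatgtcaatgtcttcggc
Cox6a1: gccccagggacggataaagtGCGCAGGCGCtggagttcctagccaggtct

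Reads of such short fragments can fall on more than a single gene. Of the 83 members with transcripts in the annotation, 58 shared at least 1 stretch of 36 bases with a transcript of another gene. The shared part was small, with a median of 3.53% of the stretches, and the highest was 46.8% in Atp5o. It was 15.7% in Cox7a2l, 12.6% in Atp5l and 12.4% in Cox5a. The other genes that hold these stretches had 0 reads for Atp5o and Cox7a2l and 3 for Cox5a. They had 47636 for Atp5l, whose stretches recur in 2041 genes. For Atp5b, with 4.50% of its stretches shared, they were 1401 genes with 65164 reads. Exons of 29 members overlap an exon of another gene, for 26 of them on the opposite strand, and whether strand was used in counting was not stated, so the 476 reads of these 29 are uncertain. Only 9 of them overlap a gene that had reads itself. No small RNA gene inside a member and listed in the tables had a read.

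The mRNAs of mitochondrial DNA far exceeded those of the nucleus in the same complexes. Over all libraries there were 9.28 reads from the 13 mitochondrial mRNAs for each read from the 84 nuclear members, and all 17 libraries had more of the former. Per length the gap was wider. The highest member, Cox6b1, had a mean of 1.36 RPKM, and the lowest mitochondrial mRNA, mt-Nd2, had 5.35, so all 13 stood above every member. The median was 13.0 RPKM over the mitochondrial mRNAs and 0.0898 over the members. In complex IV the mitochondrial core subunits mt-Co1, mt-Co2 and mt-Co3 had 5130 reads, 14.7 for each read of the 18 nuclear members. In complex I the 7 mitochondrial mRNAs had 13.7 reads per read of the nuclear members, in complex III mt-Cytb alone had 7.78, and in complex V mt-Atp6 and mt-Atp8 had 2.53. With Ndufa4 counted in complex IV the order of complexes I and IV turned, to 17.8 and 12.1.

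**Figure D2:**
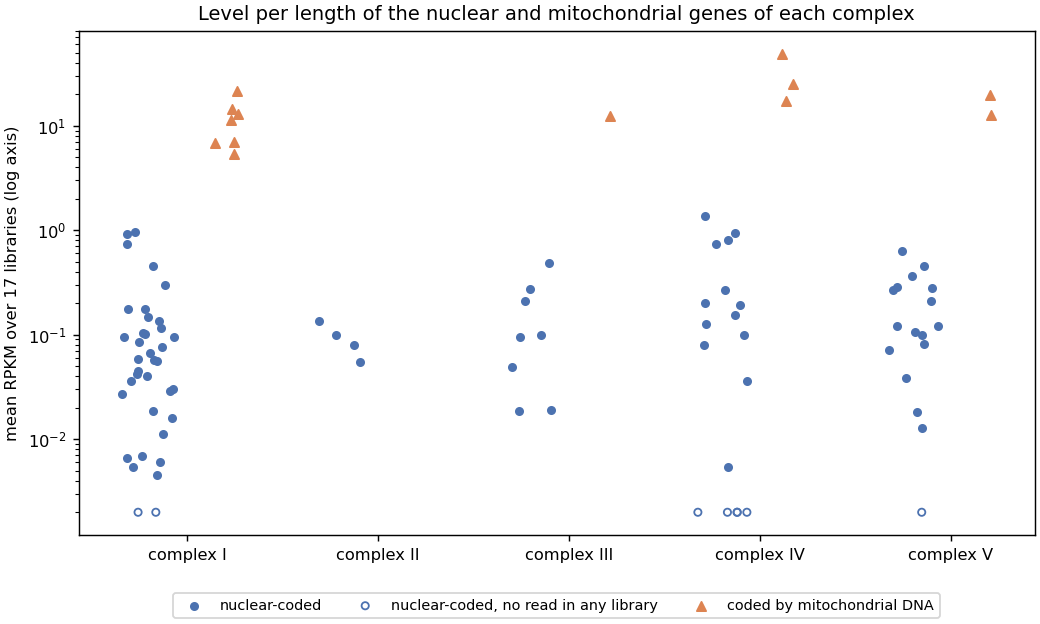
Mean RPKM over the 17 libraries (log axis) of each nuclear-coded gene (circles) and each mRNA of mitochondrial DNA (triangles), by respiratory complex. Open circles are the 8 genes without a read, drawn at the foot of the axis since 0 has no place on it. All triangles lie above all circles, from 5.35 upwards against 1.36 at most.

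A ratio within a library does not depend on how libraries are scaled to each other. The nuclear members had between 0.0822 and 0.318 reads per mitochondrial mRNA read in AG, with a median of 0.122 and a mean of 0.147 ± 0.0864 (SD, n = 6). In MG the ratio ran from 0.0703 to 0.322, with a median of 0.0805 and a mean of 0.124 ± 0.0984 (SD, n = 6). The GC libraries had 0.108, 0.171, 0.0776, 0.109 and 0.0819, with a mean of 0.110 ± 0.0374 (SD, n = 5). The groups overlapped over most of their range, and the differences between the means were smaller than the SD of AG or MG. In each flight group a single library set the upper end. AG replicate 6 had 76 member reads and 239 mitochondrial mRNA reads, and MG replicate 4 had 100 and 311. Without these 2 libraries the ratio was 0.113 ± 0.0244 in AG (SD, n = 5) and 0.0848 ± 0.0207 in MG (SD, n = 5), and the ranges still overlapped, from 0.0822 to 0.142 in AG and from 0.0703 to 0.120 in MG.

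The same 2 libraries had the highest values of a measure that holds no member. RPKM values divide a gene's reads by its length and by a total for the library, and this total can be read back from the deposited counts and RPKM of 86 genes with at least 5 reads in every library. Per counted read, and relative to the library with the lowest value, it was 4.84 in MG replicate 4 and 2.38 in AG replicate 6. In the other 15 libraries it lay between 1 and 2.01. What the total includes beside the counted reads was not stated. The liver markers were also high in AG replicate 6 (3028 TMM-normalized CPM in sum) but at 341 in MG replicate 4, and MG replicate 6, with the highest liver level (3723), had a ratio of 0.0728. The part of either in the ratio was not tested.

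**Figure D3:**
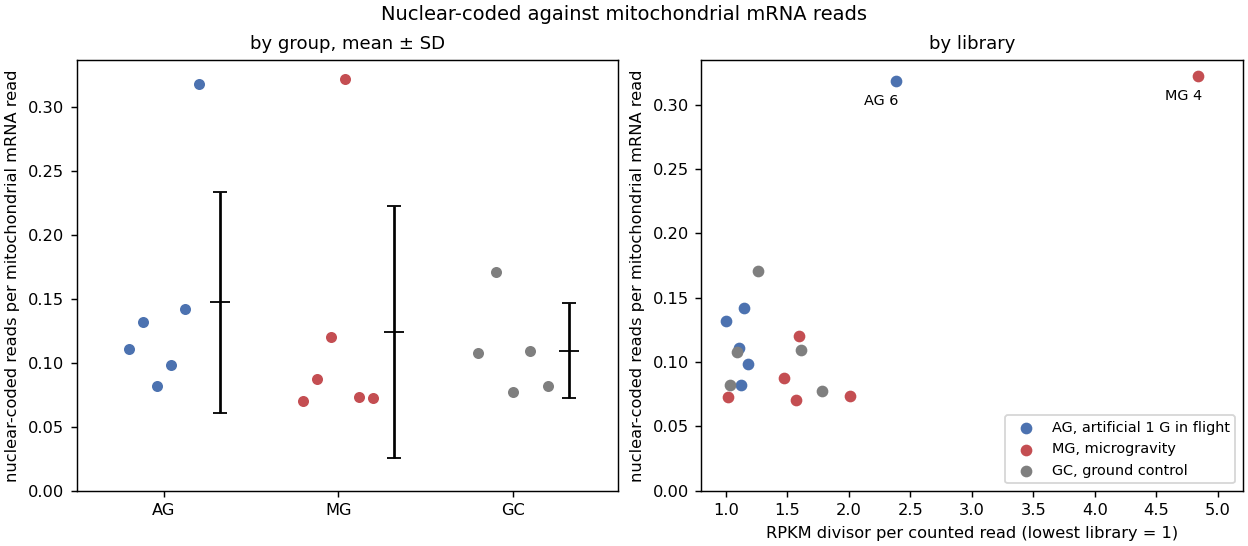
Reads of the 84 nuclear members per read of the 13 mitochondrial mRNAs, on the left by group (points are libraries, bars the mean ± SD) and on the right against the RPKM total per counted read, relative to the lowest library. AG replicate 6 and MG replicate 4 lie alone at ratios of 0.318 and 0.322, and the other 15 libraries lie between 0.0703 and 0.171.

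The summed level of the nuclear members did not separate the groups. It ran from 202 to 992 TMM-normalized CPM in AG (median 433), from 406 to 811 in MG (median 491), and was 387, 560, 311, 542 and 288 in GC. The means were 493 ± 278 over the 6 AG libraries (mean ± SD), 529 ± 143 over the 6 MG libraries and 417 ± 127 over the 5 GC libraries. MG was 1.07 times AG and 1.27 times GC, both within the spread. As CPM of all reads the same libraries gave 303 ± 138 over the 6 AG libraries (mean ± SD), 672 ± 230 over the 6 MG libraries and 507 ± 235 over the 5 GC libraries, so MG was 2.22 times AG, with AG libraries up to 457 and MG libraries from 282. As CPM of the reads outside the 4 abundant genes, MG was 1.01 times AG. The AG libraries, low in the unscaled level, are those with the highest share of the 4 abundant genes. By the sum of RPKM, MG was 1.53 times AG and 0.908 times GC. Under TMM scaling the mitochondrial mRNAs had 3380 ± 962 over the 6 AG libraries (mean ± SD), 5254 ± 1767 over the 6 MG libraries and 3869 ± 678 over the 5 GC libraries, so MG was 1.55 times AG, and these ranges overlapped too.

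**Figure D4:**
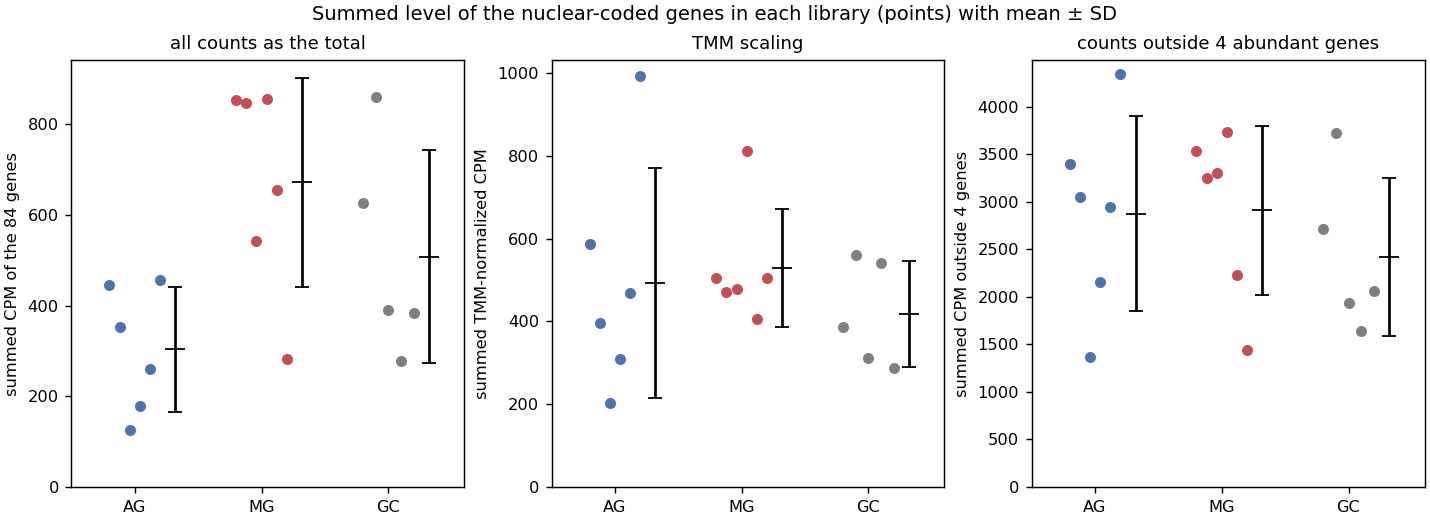
Summed level of the 84 nuclear members in each library (points) with the mean ± SD of the group, as CPM of all reads (left), after TMM scaling (middle) and as CPM of the reads outside 4 abundant genes (right). The MG mean is 2.22 times the AG mean on the left, 1.07 times in the middle and 1.01 times on the right.

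The ranges of AG, MG and GC overlapped in every complex. By TMM-normalized CPM complex I had 120 ± 43.6 over the 6 AG libraries (mean ± SD), 160 ± 46.2 over the 6 MG libraries and 88.5 ± 25.5 over the 5 GC libraries, and its MG mean was 1.80 times that of GC, the widest ratio between MG and GC of the 5 complexes. The MG libraries ran from 90.2 to 220 and the GC libraries from 66.8 to 130, with overlap. Complex IV had 116 ± 59.1 over the 6 AG libraries (mean ± SD), 143 ± 46.1 over the 6 MG libraries and 144 ± 16.8 over the 5 GC libraries. Complex V had 162 ± 127, 156 ± 67.3 and 128 ± 82.4 in the same order, and its highest library was again AG replicate 6, at 405. Complex III had 55.9 ± 35.5, 46.5 ± 39.4 and 41.7 ± 33.7, and complex II had 38.5 ± 67.4, 24.2 ± 14.9 and 15.6 ± 10.4. Without AG replicate 6 the AG mean of complex II was 12.3, below the other 2 groups. As shares of the member reads, complex IV held 23.5% ± 10.8 over the 6 AG libraries (mean ± SD), 27.1% ± 5.61 over the 6 MG libraries and 36.2% ± 7.97 over the 5 GC libraries, with libraries between 5.71 and 38.2% in AG and between 27.8 and 47.8% in GC. With Ndufa4 counted in it, complex IV held 26.6, 35.0 and 41.3% in AG, MG and GC. These are sums over genes chosen with earlier results of these data known, and no p is given for them.

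Gene by gene, the edgeR test with its usual filter on low counts did not reach the nuclear chain. Of the 272 genes that the filter kept, 0 were members, while all 13 mitochondrial mRNAs were kept. In that fit 13.2% of the genes in MG against AG met the study's own criterion, which asks for an unadjusted p under 0.05 with a fold change over 1.5. The share was 4.41% for MG against GC, and 11.8% when AG was set against GC. To give the members values, the same quasi-likelihood test was run on the 6270 genes with at least 5 reads in all, which include 52 members. There, 3 members (5.77%) passed the criterion between MG and AG, beside 13.1% of all genes. Between MG and GC 4 members (7.69%) passed, beside 13.6%, and between AG and GC 5 members (9.62%), beside 12.2%. All members called in MG against AG or GC were higher in MG. Of all genes, 9.87% were called higher and 3.19% lower in MG against AG, and 9.79% higher and 3.83% lower in MG against GC. Of the 5 members called in AG against GC, 3 were higher and 2 lower in AG, beside 5.82% and 6.36% of all genes. With Benjamini-Hochberg adjustment over the 6270 genes, 0 members had an adjusted p under 0.05 in any comparison, beside 0.0957%, 0.159% and 0% of all genes, and their smallest adjusted p was 0.34, 0.313 and 0.402 in the same order. With DESeq2's Wald test 1, 2 and 2 members passed the criterion (1.92, 3.85 and 3.85%), beside 1.59%, 1.56% and 1.91% of the 6270 genes. The members' share was below that of all genes in edgeR's test and above it in DESeq2's, so no order of the 2 shares is read from these counts. The 52 members had a median log2 fold change of 0.18 in MG against AG, where all genes had 0.34. In MG against GC their median was 0.16, beside 0.22, and for AG relative to GC it was -0.02, beside -0.05. A member had to have 5 reads to be tested, and the comparisons share libraries. In 2 of the 3, 2 of the 4 and 2 of the 5 calls the member reached 5 reads only with those of the group in which it was higher (Uqcrb and Ndufa9 in MG, Ndufc2 in AG and Atp5f1 in GC), so the filter favoured these calls and nothing is read from them.

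Cox6b1 was the only member with reads in all 3 groups that passed the criterion in more than 1 comparison, in both cases with lower values in AG. It had 0, 3, 0, 1, 1 and 0 reads in AG, 3, 12, 1, 4, 4 and 2 in MG and 4, 5, 0, 2 and 12 in GC. Its level was 6.38 ± 7.30 TMM-normalized CPM over the 6 AG libraries (mean ± SD), 24.3 ± 18.3 over the 6 MG libraries and 23.6 ± 18.2 over the 5 GC libraries. All MG libraries had reads, 3 of 6 AG libraries had none, and the ranges overlapped. By edgeR's quasi-likelihood test the log2 fold change was 1.89 (SE 0.88, unadjusted p = 0.0317, adjusted p = 0.34) for MG against AG and -1.97 (SE 0.91, unadjusted p = 0.0295, adjusted p = 0.402) for AG against GC. Both comparisons use the same AG libraries. Between MG and GC it was -0.08 (SE 0.78, adjusted p = 0.996). Single libraries decided both calls. MG replicate 2 holds 12 of the 26 MG reads, and without it the value for MG against AG fell to a log2 fold change of 1.31 and the edgeR call was lost (unadjusted p = 0.17). Without GC replicate 5, which holds 12 of the 23 GC reads, it was -1.35 between AG and GC and the edgeR call was also lost (unadjusted p = 0.178). Leaving out AG replicate 1, 3 or 6, which have no read of Cox6b1, ended both calls too, with log2 fold changes of 1.65, 1.62 and 1.67 for MG against AG and of -1.75, -1.73 and -1.78 for AG against GC.

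Atp5j, a subunit of the stalk that holds the ATP synthase in place, had reads in flight libraries and none on the ground. Together with Uqcrb, Ndufa9, Atp5f1, Ndufc2 and Atp5k, which follow, it was named after its values were seen. The AG libraries had 3, 2, 1, 4, 0 and 1 reads, the MG libraries had 3, 0, 7, 2, 1 and 0, and the 5 GC libraries had 0. A floor of 3 reads was set over the 5 GC libraries. The AG level was 3.82 times this floor (edgeR against GC, unadjusted p = 0.00188, adjusted p = 0.402). The MG level was 3.52 times the floor (edgeR against GC, unadjusted p = 0.0017, adjusted p = 0.313). These values leave out the counting error of the flight reads and the spread between mice, so they are not lower limits. Without MG replicate 3, which holds 7 of the 13 MG reads, the value for MG was 1.86. Without AG replicate 4, which holds 4 of the 11 AG reads, the value for AG was 2.90. The 1 AG library and 2 MG libraries without a read overlap with GC. An exon of Atp5j overlaps an exon of Gabpa, a subunit of the GABP factor, on the opposite strand, and Gabpa had 5, 5 and 2 reads in AG, MG and GC.

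The other members past the criterion also rested on few reads. Sdha had 18 reads in MG and 2 in GC, a ratio of 7.31 per scaled read (95% interval 1.75 to 65.0, counting error only), with an edgeR unadjusted p of 0.0244 and an adjusted p of 0.313. It no longer met the criterion without MG replicate 1 (log2 fold change 2.15), GC replicate 1 (2.32) or GC replicate 3 (2.28), beside 2.54 with all libraries. Uqcrb, a small subunit of complex III, had 8 reads, 4 in each of 2 MG libraries, and Ndufa9, an accessory subunit of complex I, had 6 reads, all in MG replicate 2, without which it has none. Both were at 0 in AG and GC and passed the filter of 5 reads through MG alone, so their place among the calls is given as a description. No fold is read from either gene. Of the 36-base stretches of Ndufa9 transcripts 3.96% also lie in other genes, 415 genes that had 23431 reads in all. Of those of Uqcrb 32.1% do, in 5 genes that had 1 read.

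Between AG and GC, Atp5k, a small membrane subunit of the ATP synthase, had 9 reads in 5 AG libraries and 1 read in GC, a ratio of 9.36 (95% interval 1.30 to 410, counting error only). Its edgeR unadjusted p was 0.049, and it did not pass the criterion in 15 of its 19 alternative fits. Ndufc2 of complex I had 4 reads in 2 AG libraries and 0 in GC. Atp5f1, another stalk subunit, had 0 reads in AG and 4 in 3 GC libraries. Each reached 5 reads only with those of the group in which it was higher, so no fold is read from either. Both lie near the floor of 3 reads, and without the library with the most reads each has 2.

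**Figure D5:**
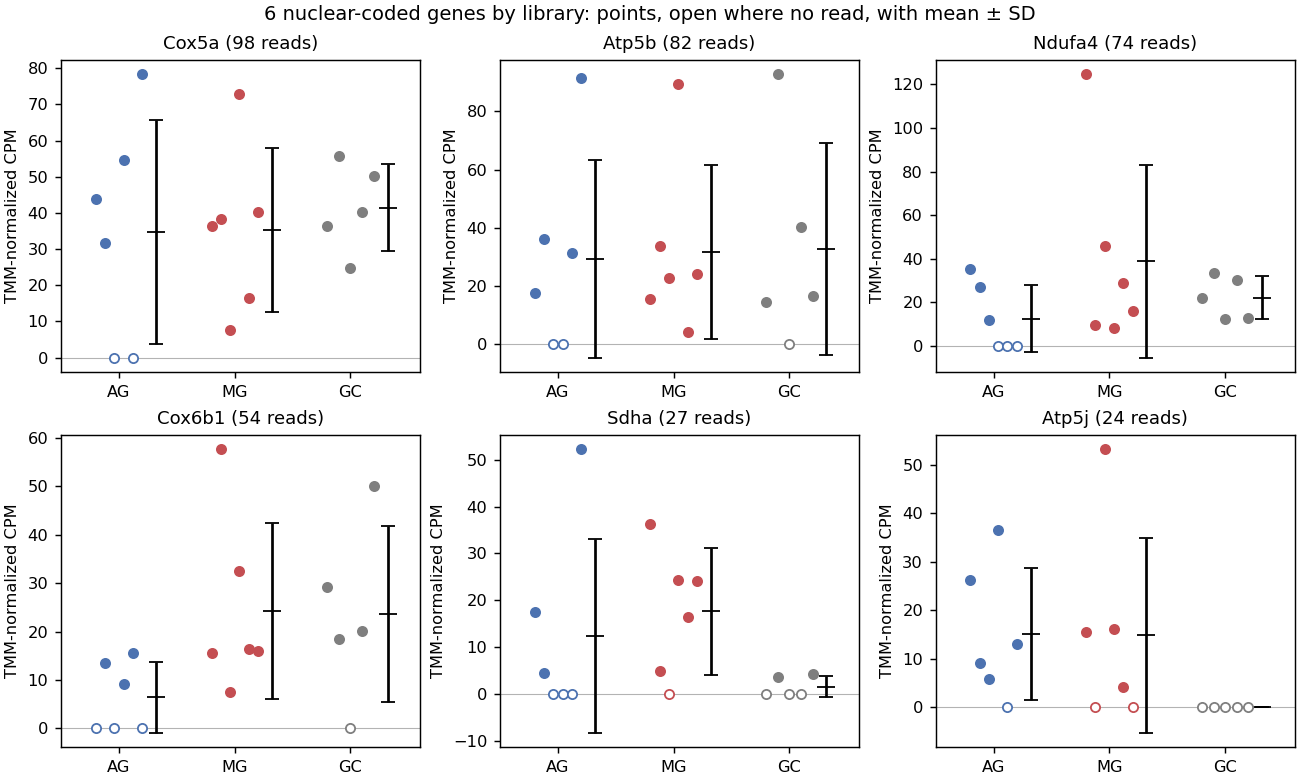
TMM-normalized CPM of 6 nuclear members in each library (points, open where the library had no read) with the mean ± SD of the group. Cox5a, Atp5b and Ndufa4 have the most reads, and their groups overlap. Cox6b1 has means of 6.38, 24.3 and 23.6 in AG, MG and GC, and the 5 GC libraries of Atp5j lie at 0.

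Genes that serve the chain without being part of it were also sparse. Among 42 assembly factors, which insert cofactors and put the complexes together, 28 were detected with 302 reads, and 11 had at least 5 reads. Of these 11, 2 were higher and 2 lower in MG than in AG by the criterion, 1 was lower in MG than in GC and 1 lower in AG than in GC. All 13 genes of the citric acid cycle, which feeds the chain with NADH and succinate, were detected with 158 reads. Of the 10 that were tested, none passed the criterion between MG and AG or between MG and GC, and 1 was lower in AG than in GC. The 8 genes of carriers and cytochrome c had 249 reads, and none of the 7 tested passed in any comparison. Atpif1, the inhibitor that blocks the ATP synthase when it would run backwards, had 78 reads in 15 libraries, and cytochrome c itself (Cycs) had 3. Of the 11 genes for mitochondrial transcription and its regulators, 8 were detected with 49 reads and 4 were tested, of which 1 was higher in MG than in AG, 1 higher in MG than in GC, and 1 higher and 2 lower in AG than in GC. No gene of these lists had an adjusted p under 0.05 in edgeR's test. Tfam, the main packaging and transcription factor of mitochondrial DNA, had 0, 4 and 6 reads in AG, MG and GC. The 13 mitochondrial mRNAs in the same fit had a median log2 fold change in edgeR of 0.82 in MG against AG, of 0.39 in MG against GC and of -0.49 for AG relative to GC, and 2 of them passed the criterion, both higher in MG than in AG, with none past an adjusted p of 0.05. With the usual filter on low counts, 4 were higher in MG than in AG (mt-Nd1, mt-Nd4l, mt-Cytb and mt-Co2) and 2 were higher in MG than in GC (mt-Nd1 and mt-Nd4l), also with none past an adjusted p of 0.05.

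Markers of other sources moved in some of the same comparisons, here in the fit on genes with at least 5 reads. Of the 10 liver markers, 6 were higher in MG than in GC, 4 higher in AG than in GC and 2 higher in MG than in AG by the criterion. Albumin (Alb) in MG against GC was the only marker past an adjusted p of 0.05 in that fit (edgeR log2 fold change 4.03, adjusted p = 6.27e-05). Of the 10 red cell markers, 5 were lower in MG than in AG, 1 was lower in MG than in GC and 1 higher in AG than in GC. Of the 5 skeletal muscle markers tested, 1 was higher and 2 were lower in MG than in AG, and 1 was lower in MG than in GC. Of the 5 heart muscle markers tested, 1 was higher in MG than in AG and 2 were lower in AG than in GC. None of the 8 platelet and 6 leukocyte markers tested passed in that fit. With the usual filter on low counts, the platelet marker Pf4 passed the criterion as higher in MG than in AG (log2 fold change 1.09), the red cell marker Bpgm was the only marker past an adjusted p of 0.05 (higher in AG than in GC, edgeR log2 fold change 1.85, adjusted p = 0.0335), and Alb in MG against GC had an adjusted p of 0.604. The summed liver level ran from 13.5 to 3028 TMM-normalized CPM in AG, from 28.8 to 3723 in MG and from 55.9 to 161 in GC. The summed red cell level ran from 10069 to 25368 in AG, from 2929 to 19086 in MG and from 6239 to 18807 in GC. The summed skeletal muscle level ran from 23.1 to 245 in AG, from 8.11 to 57.1 in MG and from 4.17 to 102 in GC, and the heart muscle level from 0 to 135, from 0 to 187 and from 12.4 to 311. No liver or red cell marker was at 0. Their part in the members' values was not tested.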

How the data were processed

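Cell-free RNA of 17 mouse plasma samples was sequenced, with degraded RNA made into libraries by a small RNA kit. According to the study's methods, the authors mapped the reads to mm10 in CLC Genomics Workbench 10.1.1 and counted them on 49585 genes. The trimming, the use of strand and the treatment of reads with several matches were not given in the sources used here. The deposited counts per gene are raw whole numbers, and the deposited RPKM values come from the same reads, divided by gene length and a library total. The TPM column was not used. The members and lists were chosen with earlier results of these data known.

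Groups were taken from the sample titles. The main test was edgeR 4.0.16 (TMM, filterByExpr, quasi-likelihood F-test, R 4.3.3) on all 17 libraries, with Benjamini-Hochberg adjustment over all genes tested. A call was an unadjusted p under 0.05 with a fold change over 1.5, the criterion of the study. Because no member passed the filter, the fit was repeated on genes with at least 5 reads. Sums, ratios and shares have no test. The labels name each library as a sample of its own, and the p-values measure the spread between these libraries. No library pair agreed within sampling noise (lowest chi-square per degree of freedom 5.46). Depth was 84657 to 277682 reads per library, at which 1 read of a member is a change of several CPM. Intervals are exact binomial ones at 95%. The members named are the 3 with the most reads in each complex (ties kept), any that passed the filter or the main criterion (none did), and 7 tissue-restricted isoforms with 6 broadly expressed partners. Other members are named for a count of reads, a sequence or a call, after their values were seen. Alternatives were other scalings (RLE, none, without 4 abundant genes), DESeq2 1.42.0, limma 3.58.1 on log2(RPKM + 1), the exact test, a replicate block and leaving out each library. Promoters are from RefSeq (GRCm38.p6), for which 84 members were matched and 69 had a window, and coordinates are from GENCODE on GRCm38, which is mm10.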

Additional observations from a re-analysis of the deposited data

Results flagged for a closer look

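A value was singled out by Dixon's criterion, which sets the gap between the most extreme library and its nearest neighbour against the whole range. It picked 14 values out of 72 groups, where chance gives about 1 in 20 groups, or 3.60, and values of the same library are not independent.

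MG replicate 4 stood above the rest of its group in the summed level of the members, at 811 TMM-normalized CPM against 406 to 506 in the others, in its ratio to the mitochondrial mRNAs, at 0.322 against 0.0703 to 0.120, and in Atp5b, at 89.3 (11 reads) against 4.10 to 33.6. AG replicate 6 stood above its group in the same ratio, at 0.318 against 0.0822 to 0.142, in complex V, at 405 TMM-normalized CPM against 51.9 to 175, and in complex II, at 170 against 0 to 52.5. Within complex II it was the highest AG library for all 4 genes, Sdha (52.2, 4 reads), Sdhb (52.2, 4 reads), Sdhc (26.1, 2 reads) and Sdhd (39.2, 3 reads). These are the 2 libraries with the largest RPKM total per counted read, and its part in the values was not tested.

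Ndufa4 reached 125 TMM-normalized CPM (24 reads) in MG replicate 1, where the other MG libraries had at most 45.6. Uqcrh was at 0 in AG replicate 4, where the other AG libraries had at least 22.6. The remaining values rest on few reads: Uqcrc1 in GC replicate 3 (31.1, 5 reads, the others at 0), Uqcr11 in GC replicate 4 (30.1, 3 reads), Sdhb in GC replicate 3 (6.21, 1 read) and Sdhc in MG replicate 2 (4.81, 1 read).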

How the results depend on the processing

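No member passed the filter of the main test, so 0 members were called in each comparison under the other scalings and tests on the filtered genes. Without GC replicate 1, 3 or 4, a single member passed the filter and was not called. On genes with at least 5 reads, 3, 4 and 5 members were called in MG against AG, MG against GC and AG against GC, with no filter 4, 8 and 7 (5.26, 10.5 and 9.21%, beside 8.47, 7.95 and 6.63% of all genes), and the exact test, run on the genes of 5 or more reads, gave 1, 1 and 2 (1.92, 1.92 and 3.85%, beside 2.11, 2.26 and 2.01%). The following were chosen after it was seen that no member passed the filter. In the same order, DESeq2 called 1, 2 and 2 (beside 1.59, 1.56 and 1.91% of all genes), limma on log2(RPKM + 1) called 0, 0 and 1 (beside 0.431, 0.319 and 1.24%), and without a scaling factor 7, 5 and 4 were called (beside 1310, 916 and 943 of the 6270 genes). With only the 2 groups compared, 2 were called between AG and GC (4.65% of 43 members tested, beside 10.9% of all genes). Leaving out a library gave 2 to 4, 3 to 6 and 2 to 4 calls (3.85 to 8%, 5.88 to 12% and 3.85 to 7.84%, beside 11.1 to 14.1%, 10.7 to 13.4% and 10.4 to 12.3% of all genes). For AG against GC the count was 3 without AG replicate 1, 2, 3 or 6 or GC replicate 2, and 2 without GC replicate 1 or 5. Of the 12 calls, 12 held with RLE factors, 5 with DESeq2, 4 with the exact test and 1 with limma, and no direction reversed. The cause of these differences was not tested. With the replicate block 1, 1 and 1 members were called (beside 2.33, 2.25 and 2.85% of all genes), and 3 of the 12 calls held. The numbers share no animal. Of 16 same-numbered pairs of libraries 7 had a correlation over 0.1 (range -0.472 to 0.593), and 5 of 17 libraries correlated best with their own number. Whether same-numbered libraries share a step of processing was not stated, and these correlations cannot decide it.

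Relative to the mean of the 17 libraries, the summed level was 1.02 in AG, 1.09 in MG and 0.863 in GC with TMM. It was 1.21 in GC by the sum of RPKM, which uses another total per library, and 0.614 in AG as CPM of all reads, which lies within the SD of AG. With Ndufa4 in complex IV, the share of that complex in MG moved from 27.1 to 35.0%, and by RPKM the share of complex V in MG was 20.8% and that of complex I in GC 29.1%. Without Cox5a, by RPKM or as a ratio of summed reads, the ratio to the mitochondrial mRNAs stayed within 1 SD in all groups. Leaving out a library, it ran from 0.113 to 0.161 in AG, from 0.0848 to 0.135 in MG and from 0.0941 to 0.118 in GC. With a median of 9.50 reads per member over 17 libraries, depth limits what can be said of single members.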
